A study of Homo sapiens with 4 samples.

Results

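The genes described here are 10 chaperones and thiol-disulfide enzymes of the endoplasmic reticulum (ER), chosen by symbol from a table of 61806 genes: HSPA5, HYOU1, CALR, CANX, PDIA3, PDIA4, PDIA6, P4HB, SDF2L1 and ERO1B. All 10 were found, each in 1 row, and all 10 passed the minimum of 10 counts in both cell lines. Their RNA was compared between control cells and cells given CPYPP, an inhibitor of the DOCK exchange factors that the study used to induce paraptosis, a vacuolating form of cell death in which the ER swells. The breast cancer line MDA-MB-231 and the melanoma line MDA-MB-435, both labelled WT for genotype, gave 2 libraries each and are also called the breast line and the melanoma line here. For the CPYPP libraries the labels give 6 h, and the treatment description, which names only MDA-MB-435 for every sample, gives 10 µM. The vehicle and the time of the controls are not given in the sources used here. With 1 library per condition there was no replicate, so the differences within a line compare 2 libraries, and the intervals given with them (95%, exact binomial) cover counting error only. The cells were measured in bulk, where fewer cells that express a gene and less RNA per cell cannot be told apart.

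Proteins that enter the secretory pathway fold in the ER lumen. HSPA5 (BiP), the HSP70 of the lumen, binds unfolded segments and is recharged with ATP with the help of HYOU1, while calnexin (CANX) and calreticulin (CALR) hold proteins that carry a trimmed sugar chain and pass them to PDIA3. Protein disulfide isomerases such as P4HB, PDIA4 and PDIA6 form and exchange disulfide bonds, and the ERO1 oxidases, of which ERO1B is one, take the electrons from them. When unfolded proteins build up, the sensors of the unfolded protein response activate transcription factors (the cleaved form of ATF6, spliced XBP1, ATF4) that are known to raise many of these genes, in part through the ER stress response element (ERSE) of their promoters. The heat shock response of the cytosol is a separate program, which acts through heat shock elements. The comparison asks how the lumenal folding genes stood after CPYPP beside these neighbouring programs.

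The promoters are shown because most of the 10 genes share an element there, which is a known feature of this class of genes. Windows from 250 bases before to 50 bases after each start were taken from RefSeq (GRCh38.p14) for 27305 genes, and 9 of the 10 genes had one. The exception was PDIA3. Both strands were searched for the ERSE, which is CCAAT and CCACG with 9 bases between them, and for the ERSE-II, which is ATTGG and CCACG with 1 base between them. The ERSE was found for 5 of the 9 genes (HSPA5, CALR, CANX, PDIA6 and ERO1B), against 0.0916% of all genes, and the ERSE-II for 2 (HYOU1 and SDF2L1), against 0.0696%. Together the 2 elements were found for 7 of 9 genes and for 0.161% of all genes, and for neither PDIA4 nor P4HB. The sites are shown on the strand of their gene, with the bases of the element in capitals. A site read on the other strand shows the complement, so that CGTGG stands for CCACG.
HSPA5 ERSE, chr9:125241386-125241414, minus strand: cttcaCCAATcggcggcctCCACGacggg
CALR ERSE, chr19:12938379-12938407, plus strand: ccacgCGTGGtcgaccatcATTGGtcggt
CANX ERSE, chr5:179698773-179698801, plus strand: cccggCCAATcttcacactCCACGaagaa
PDIA6 ERSE, chr2:10812848-10812876, minus strand: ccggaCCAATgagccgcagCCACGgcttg
ERO1B ERSE, chr1:236282178-236282206, minus strand: gcccgCGTGGtcccgcctcATTGGccgcc
HYOU1 first ERSE-II, chr11:119057371-119057399, minus strand: gccccgtgaCGTGGtCCAATcccaggccg
HYOU1 second ERSE-II, chr11:119057265-119057293, minus strand: ggcctgggaCGTGGtCCAATgagtacgcg
SDF2L1 ERSE-II, chr22:21642105-21642133, plus strand: cctcggaagCGTGGaCCAATcaaaaccct

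Counted from the RefSeq start, the first base of the element lay at -66 in HSPA5, -225 in CALR, -151 in CANX, -86 in PDIA6, -243 in ERO1B, -188 in SDF2L1 and at -185 and -79 in HYOU1. Counted from other RefSeq starts of CANX, the ERSE lay at -9 and -189. In GENCODE v29 the sites of HSPA5, CALR, ERO1B, HYOU1 and SDF2L1 lay outside any annotated gene, that of PDIA6 lay inside PDIA6 but in none of its exons, upstream of 1 of its 2 RefSeq starts, and that of CANX overlapped an exon of CANX, since these 2 genes have several starts. The first ERSE-II of HYOU1 overlapped a match to TGACGTGG, an element bound by spliced XBP1 (UPRE), which was found for 0.927% of all genes. The amino acid response element TGATGNAA, through which ATF4 acts, was found for 0 of the 9 genes and 4.46% of all genes. GAANNTTC, a core of the heat shock element, was found in 1 window of CANX alone among the 9 genes, against 8.21% of all genes and 3 of the 4 HSP70 genes outside the ER. The ERSE was defined in part on the promoters of HSPA5, CALR and HSP90B1, so its presence there is background. Since the element is known for ER folding genes, the contrast of the 9 genes with all genes is a description too. A match of letters is a description of the window and says nothing of whether a factor was bound in these cells.

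The stretch upstream of HSPA5 is given at greater length because HSPA5 was 1 of the 2 genes called higher over both lines, as described next. It ends 1 base before the gene's first base in the deposited table, and the capitals mark the ERSE.
HSPA5 upstream, chr9:125241383-125241593, minus strand: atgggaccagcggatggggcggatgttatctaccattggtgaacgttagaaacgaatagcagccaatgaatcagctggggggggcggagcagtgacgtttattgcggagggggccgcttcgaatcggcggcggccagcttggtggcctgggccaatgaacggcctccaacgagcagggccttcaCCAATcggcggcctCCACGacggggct

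After CPYPP, ERO1B and HSPA5 were higher in both lines, CANX was higher by a smaller fold that was nearly equal in the lines, and the other 7 genes lay between 0.819 and 1.19 times their control. ERO1B was 1.88-fold higher in MDA-MB-231 and 1.70-fold higher in the melanoma line. HSPA5 was 1.29-fold and 1.52-fold higher. None of the 10 passed the fold change of 2 that the study used as its threshold, in either direction, whereas the edgeR binomial test with that threshold called 4.22% of 16441 genes higher in MDA-MB-231 and 3.09% lower, and in the melanoma line 3.17% of 16527 genes higher and 6.52% lower. At a fold change of 1.5, 1 of the 10 was called higher in MDA-MB-231 (ERO1B), where 8.55% of all genes tested were, and 0 were called lower, where 6.66% of all genes were. In MDA-MB-435, 2 of the 10 were called higher (HSPA5 and ERO1B) against 8.3% of all genes, and 0 lower against 11.4%. The shares of 1 and 2 in 10 are close to these backgrounds, so the counts do not set the 10 genes apart from genes in general.

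Over both lines together, the edgeR quasi-likelihood test with the line as a block called 2 of the 10 higher, again HSPA5 and ERO1B, and 0 lower. Of all 16801 genes tested it called 4.39% higher and 2.85% lower. In this fit the treatment is repeated only across the lines, with 1 residual degree of freedom. Its TMM factors were computed over the 4 libraries together. A common value can therefore lie outside the folds of both lines, which used TMM within each line. The spread of a gene was estimated with help from the other genes. The SE was 0.112 for HSPA5 and 0.110 for CANX, although their melanoma folds were 1.18 and 1.02 times those in MDA-MB-231. The median log2 fold change of the 10 genes was 0.11 in MDA-MB-231 and 0.15 in the melanoma line, beside medians of -0.01 and -0.02 over all genes tested. These medians depend on the scaling, since dividing by total counts in place of TMM shifted the median of all genes by -0.07 in MDA-MB-231 and -0.15 in the melanoma line and left the 10 genes at 0.04 and -0.0010. Of all genes called at a 1.5-fold change, 56.2% were higher in MDA-MB-231 and 42.2% in the melanoma line with TMM, against 45.5% and 23.5% with total counts (27.3% in the melanoma line with upper-quartile factors), and of those called over both lines 60.7% were higher with TMM, 43.5% with total counts and 50.7% with upper-quartile factors. The distance of the 10 genes above the median of all genes does not depend on the scaling.

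**Figure D1:**
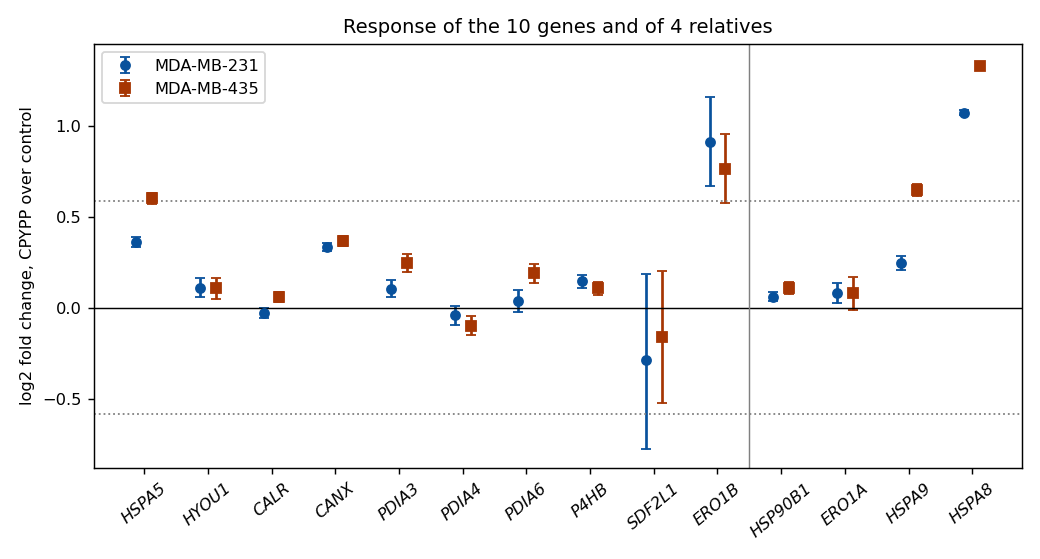
Log2 fold change of CPYPP over control for the 10 genes (left of the vertical line) and 4 relatives (right), with circles for MDA-MB-231, squares for MDA-MB-435, bars for 95% exact binomial intervals of counting error and dotted lines at a fold change of 1.5 in each direction. ERO1B lies above the upper dotted line in both lines and HSPA5 in MDA-MB-435 alone, while HSPA8, the HSP70 of the cytosol, lies above all 10 genes in both.

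HSPA5 is the lumenal HSP70 that binds unfolded proteins and, when bound to the stress sensors, holds them inactive (ENSG00000044574, chromosome 9, 125234853 to 125241382, minus strand, GRCh38). Its raw counts were 21511 in the breast control, 20259 in MDA-MB-231 with CPYPP, 14382 in the melanoma control and 16915 in the melanoma line with CPYPP. As TMM-scaled CPM, a count divided by the scaled depth of its library, these were 939 and 1207 in the breast line and 603 and 914 in the melanoma line. Each CPYPP library thus stood above its own control. The scaling was done within each line, so these values do not compare levels between the lines. The fold change was 1.29 (interval 1.26 to 1.31) in MDA-MB-231 and 1.52 (1.48 to 1.55) in the melanoma line. Over both lines the log2 fold change was 0.44 ± 0.11 (SE), with an adjusted p of 0.0428 by the edgeR quasi-likelihood test. The fold in the melanoma line was 1.18 times that in MDA-MB-231 (1.15 to 1.21), an interval that covers counting error and not the spread between cultures. In MDA-MB-435 the fold sits at the edge of the call, because 4 other scalings of the counts put its log2 value between 0.45 and 0.57, under a 1.5-fold change.

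HYOU1, a large HSP70 relative that exchanges the nucleotide of HSPA5, had 7047 counts in the breast control and 5572 with CPYPP (ENSG00000149428, chromosome 11, 119044188 to 119057227, minus strand). In MDA-MB-435 it had 5666 and 4731 counts. The fold changes were nearly the same, 1.08 (1.04 to 1.12) and 1.08 (1.04 to 1.12). The effect over both lines, 0.07 ± 0.11 on the log2 scale, did not pass the test (adjusted p = 0.803, edgeR quasi-likelihood). It lay below the log2 folds of both lines (0.110 and 0.107) because the common fit used other scaling factors. With TMM within each line, the common value was 0.108. HSPA5 therefore changed against its own exchange factor. The ratio of HSPA5 to HYOU1 counts, which needs no scaling between libraries, went from 3.05 to 3.64 in MDA-MB-231, a change of 1.19 times (1.14 to 1.24), and from 2.54 to 3.58 in the melanoma line, a change of 1.41 times (1.35 to 1.47).

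The 2 lectin chaperones differed from each other. CANX, calnexin, is anchored in the ER membrane (ENSG00000127022, chromosome 5, 179678628 to 179731641, plus strand), and its counts were 38768 and 35815 in the breast control and CPYPP libraries and 21021 and 20992 in those of the melanoma line. After scaling it was 1.26 times the control (1.24 to 1.28) in MDA-MB-231 and 1.29 times (1.26 to 1.31) in the melanoma line. The ratio of the 2 folds was 1.02 (0.997 to 1.05), and of the 3 genes with the largest folds CANX was the one whose ratio lay nearest to 1. The common log2 fold change of CANX was 0.31 ± 0.11. It did not pass after adjustment in the edgeR quasi-likelihood test (adjusted p = 0.133, unadjusted p = 0.0188), but it did in DESeq2 (adjusted p = 6.74e-08), while the adjusted p over the other alternatives ran from 0.0921 to 1.00.

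CALR, calreticulin, the soluble relative of calnexin that also buffers calcium (ENSG00000179218, chromosome 19, 12938578 to 12944489, plus strand), had 27150 and 19490 counts in MDA-MB-231 and 24099 and 19489 in the melanoma line. It was 0.980 times the control (0.962 to 0.998) in the first and 1.04 times (1.02 to 1.06) in the second, so that the folds lay on opposite sides of 1. Both are small, and total counts or upper-quartile factors put the second below 1 as well. The common effect was -0.03 ± 0.11 on the log2 scale (adjusted p = 0.927, edgeR quasi-likelihood). Without any scaling, the ratio of CANX to CALR counts went from 1.43 to 1.84 in MDA-MB-231 and from 0.872 to 1.08 in the melanoma line, changes of 1.29 times (1.26 to 1.32) and 1.23 times (1.20 to 1.27). In the melanoma control CALR had more counts than CANX, and with CPYPP CANX had more.

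Among the 4 disulfide isomerases none passed a fold of 1.5 in either line or the common test. PDIA3, the isomerase that works with the lectin chaperones (ENSG00000167004, chromosome 15, 43746394 to 43773279, plus strand), had 8312 and 6547 counts in MDA-MB-231 and 6455 and 5934 in the melanoma line. Its folds were 1.08 (1.04 to 1.11) and 1.19 (1.14 to 1.23), of which the second was the largest of the 4 isomerases. A processed copy elsewhere in the genome, PDIA3P1, could share reads with it. The copy held 441, 372, 290 and 288 counts in the same order of libraries, at most 5.68% of those of PDIA3.

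PDIA6, an isomerase that also binds HSPA5 and the stress sensor IRE1 (ENSG00000143870, chromosome 2, 10783391 to 10837977, minus strand), had 5356 and 4027 counts in MDA-MB-231 and 6364 and 5627 in the melanoma line. The fold was 1.03 (0.985 to 1.07) in MDA-MB-231, an interval that includes 1, and 1.14 (1.10 to 1.18) in the melanoma line. P4HB, the founding isomerase and a subunit of prolyl 4-hydroxylase (ENSG00000185624, chromosome 17, 81843159 to 81860856, minus strand), had 13939 and 11289 counts in the first line and 14673 and 12254 in the second. Its folds were 1.11 (1.08 to 1.13) and 1.08 (1.05 to 1.10).

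PDIA4, an isomerase with an additional thioredoxin-like active domain (ENSG00000155660, chromosome 7, 149003062 to 149028662, minus strand), stood lowest of the 4 isomerases in both lines. Its counts were 7322 and 5211 in the breast line and 7199 and 5216 in the melanoma line, with folds of 0.971 (0.937 to 1.01) and 0.934 (0.901 to 0.968). The common log2 effects of the 4 isomerases ran from -0.11 for PDIA4 to 0.13 for PDIA3, and the adjusted p from 0.553 to 0.785 (edgeR quasi-likelihood). Relative to PDIA4, PDIA3 counts moved by 1.11 times (1.05 to 1.16) in MDA-MB-231 and 1.27 times (1.21 to 1.33) in the melanoma line. PDIA4 and P4HB are the 2 genes whose windows held neither element.

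SDF2L1, a small partner of HSPA5 and of its co-chaperone DNAJB11 (ENSG00000128228, chromosome 22, 21642302 to 21644299, plus strand), was the least counted of the 10 genes. It had 100 and 60 counts in MDA-MB-231 and 157 and 109 in the melanoma line. Its folds were 0.819 (0.584 to 1.14) and 0.895 (0.695 to 1.15), and both intervals include 1. The folds of HSPA5 lie outside these intervals. A rise or a fall of SDF2L1 that lies within them was not detectable at this depth. The common log2 effect was -0.26 ± 0.29 (adjusted p = 0.675, edgeR quasi-likelihood).

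ERO1B, the oxidase that takes electrons from the isomerases and passes them to oxygen (ENSG00000086619, chromosome 1, 236214681 to 236282019, minus strand), had the largest fold of the 10 in both lines. Its counts were 242 and 334 in the breast line and 415 and 547 in the melanoma line, so that the raw count rose although both CPYPP libraries were the shallower of their pair. The fold was 1.88 (1.59 to 2.23) in MDA-MB-231 and 1.70 (1.49 to 1.94) in the melanoma line. The common log2 fold change was 0.79 ± 0.17 (adjusted p = 0.0194, edgeR quasi-likelihood), and the ratio of the 2 folds, 0.902 (0.732 to 1.11), included 1. ERO1B overlaps GPR137B on the other strand at its 3′ end, and the strand setting of the counting is not given in the sources used here, so reads of the shared stretch cannot be told apart. GPR137B had 130 and 152 counts in MDA-MB-231 and 452 and 408 in the melanoma line, more than ERO1B in the melanoma control and fewer in the other 3 libraries, with folds of 1.60 (1.25 to 2.03) and 1.16 (1.02 to 1.33). Its part in the ERO1B counts was not tested.

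The sister oxidase ERO1A, the more widely expressed form, had folds close to 1. It had 6113 and 4731 counts in MDA-MB-231 and 2196 and 1800 in the melanoma line, which gave folds of 1.06 (1.02 to 1.10) and 1.06 (0.993 to 1.13). ERO1B was therefore a larger share of the ERO1 counts after CPYPP, 6.59% (5.93 to 7.31) against 3.81% (3.35 to 4.31) in MDA-MB-231 and 23.3% (21.6 to 25.1) against 15.9% (14.5 to 17.4) in the melanoma line. ERO1A stayed the more counted of the 2 in all 4 libraries. The change of the ERO1B to ERO1A ratio was 1.78 times (1.505 to 2.11) and 1.61 times (1.40 to 1.85).

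**Figure D2:**
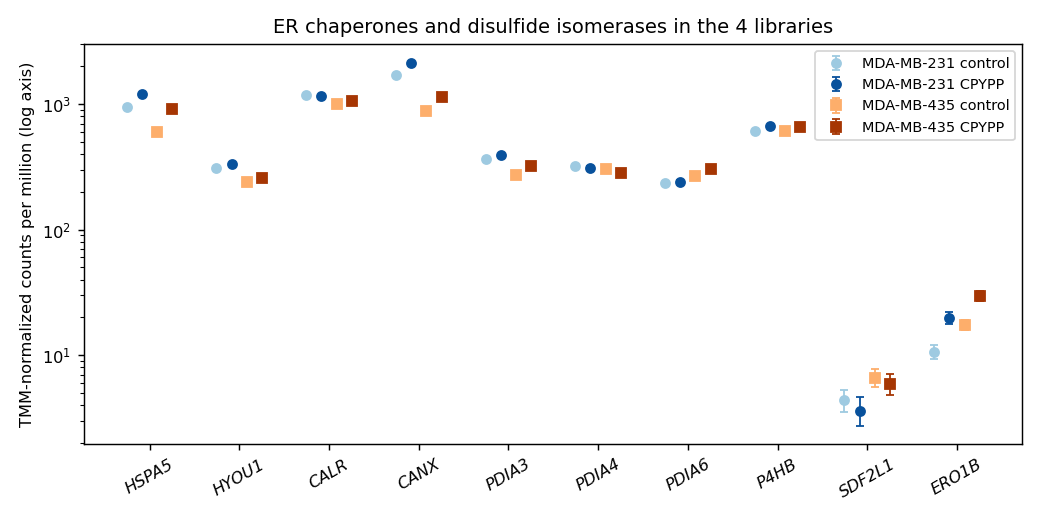
TMM-normalized CPM (log axis) of the 10 genes in the 4 libraries, light for control, dark for CPYPP, circles for MDA-MB-231 and squares for MDA-MB-435, with bars for 95% exact intervals of counting error, most of them smaller than the points. SDF2L1 and ERO1B lie at 29.6 CPM or below and the other 8 genes at 234 or above. The scaling was done within each line, so the points do not compare levels between the lines.

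Taken as 1 pool, the 10 genes held 0.580% of all counts in the breast control (0.577 to 0.583) and 0.632% with CPYPP (0.628 to 0.635). In MDA-MB-435 they held 0.443% (0.440 to 0.446) and 0.471% (0.468 to 0.474). Within the pool, which needs no scaling between libraries, the share moved in the same direction in the 2 lines for 9 of the 10 genes, with PDIA3 as the exception. HSPA5 went from 16.6% to 18.7% of the pool in MDA-MB-231 and from 14.3% to 18.4% in the melanoma line, and CANX from 29.9% to 33.0% and from 20.9% to 22.9%. CALR went from 20.9% to 17.9% and from 24.0% to 21.2%, PDIA4 from 5.64% to 4.80% and from 7.17% to 5.68%. P4HB went from 10.7% to 10.4% and from 14.6% to 13.3%, and HYOU1 from 5.43% to 5.13% and from 5.64% to 5.15%. The shares are parts of 1 pool, so a larger share of HSPA5 and CANX leaves less for the others.

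By level per length, CALR was first of the 10 in all 4 libraries and SDF2L1 and ERO1B were last. With the exon length given in the table, CALR stood at 1719 TPM, a share of transcripts in the library after division by length, in the breast control, HSPA5 at 584, CANX at 500, PDIA4 at 394, PDIA6 at 232, P4HB at 222, HYOU1 at 183, PDIA3 at 125, SDF2L1 at 16.7 and ERO1B at 2.79. These lengths add up every annotated exon. With the length of the principal transcript instead, CANX stood at 1024 TPM, P4HB at 602 and PDIA3 at 251, and CANX then came before HSPA5. The order of the middle genes therefore depends on the length used. PDIA6 and P4HB are neighbours that changed places between the 2 libraries of MDA-MB-231 by exon length.

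Before treatment the lines differed in several of these genes. The melanoma control had 0.507 times the CANX level of the breast control (0.498 to 0.515), 0.625 times that of HSPA5 (0.612 to 0.638), 0.726 times that of PDIA3 and 0.752 times that of HYOU1. It had 1.60 times the ERO1B level (1.36 to 1.89) and 1.47 times that of SDF2L1 (1.13 to 1.91). For P4HB the ratio was 0.984 (0.961 to 1.01), an interval that includes 1. These ratios use TMM factors that were computed over the 4 libraries together, and each rests on 1 library a line.

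In the response to CPYPP, the ratio of the fold in the melanoma line to that in MDA-MB-231 had an interval that excluded 1 for 4 of the 10 genes: HSPA5 at 1.18, PDIA6 at 1.11 (1.05 to 1.17), PDIA3 at 1.10 (1.05 to 1.16) and CALR at 1.06 (1.04 to 1.09). With TMM these 4 ratios were above 1. For HYOU1, CANX, PDIA4, P4HB, SDF2L1 and ERO1B the interval included 1, from 0.902 for ERO1B to 1.09 for SDF2L1. These intervals hold counting error alone and are no test of a difference between the lines. With total counts in place of TMM every ratio was smaller and 5 intervals excluded 1. HSPA5 was then at 1.12, PDIA6 and PDIA3 were at 1.05 and 1.04 and CALR was at 1.01, while HYOU1 (0.944), CANX (0.967), P4HB (0.922) and PDIA4 (0.911) lay below 1. By share of the pool 6 intervals excluded 1, with HSPA5 at 1.14, CALR at 1.03, P4HB at 0.944 and PDIA4 at 0.932. The size of the ratios thus depended on the scaling, CANX changed sides of 1, and HSPA5 had the largest ratio in all 3.

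Beside the 10 genes stand 57 others of the ER lumen and membrane in 5 lists, of which 52 were tested in MDA-MB-231 and 49 in the melanoma line. At a fold of 1.5, MDA-MB-231 had 2 called higher and 1 lower, the melanoma line had 4 called higher and 0 lower, and the common test called 4 higher and 0 lower. All those called higher were among the 17 other chaperones and HSPA5 co-factors. DNAJB9, a co-chaperone that brings HSPA5 to the sensor IRE1, had the largest fold there, with 531 and 1120 counts in MDA-MB-231 and 470 and 1283 in the melanoma line, folds of 2.88 and 3.52. SERPINH1, the collagen chaperone, had folds of 1.59 (2624 and 3059 counts) and 1.56 (4305 and 5196 counts). The other 2, named after their values were seen, were DNAJC3, a co-chaperone of HSPA5, at 1.37 and 1.58, and HSPA13, a microsomal HSP70 relative, at 1.33 in MDA-MB-231 and, with 904 and 1332 counts, a log2 fold change of 0.93 in the melanoma line. All 4 passed the common test, with adjusted p from 0.000143 to 0.0219 (edgeR quasi-likelihood).

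HSP90B1 (GRP94), the HSP90 of the lumen and the nearest relative of HSPA5 by role, was not among them. It had 29189 and 22298 counts in MDA-MB-231 and 17212 and 14407 in the melanoma line, with folds of 1.04 (1.02 to 1.06) and 1.08 (1.06 to 1.10) and a common adjusted p of 0.884 (edgeR quasi-likelihood). The ratio of HSPA5 to HSP90B1 counts changed by 1.23 times (1.20 to 1.27) and 1.41 times (1.36 to 1.45). The window of HSP90B1 also held the ERSE. Among the 10 genes, the MDA-MB-435 folds of the 5 with an ERSE ran from 1.04 for CALR to 1.70 for ERO1B, those of the 2 with an ERSE-II were 1.08 and 0.895, and those of the 2 with neither were 0.934 and 1.08, so that the ranges overlap.

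Of the other disulfide isomerases (13 and 11 of 16 tested), the enzymes of thiol oxidation (8 and 7 of 8) and those of the calnexin cycle and glycan trimming (7 and 6 of 8), 0 were called at a fold of 1.5 in either line or by the common test. Their median log2 fold changes were 0.04, -0.11 and -0.11 in the breast line and 0.13, 0.10 and -0.02 in the melanoma line. The prolyl isomerases had medians of 0.02 and 0.02, with 1 gene called, FKBP11 in MDA-MB-231, which fell from 220 to 84 counts, a fold of 0.521. It was 1.04 in the melanoma line, and FKBP11 was named after its values were seen.

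The list of unfolded protein response factors and ER-associated degradation stood further from its controls than the 10 genes by median. It had a median log2 fold change of 0.49 in MDA-MB-231 and 0.42 in the melanoma line, with 6 of 12 and 5 of 13 genes called higher at a fold of 1.5 and 6 of 12 by the common test, and 0 called lower. HERPUD1, a membrane protein of the degradation machinery, was 2.998-fold and 3.51-fold higher, and XBP1, a transcription factor that is itself spliced by IRE1, 1.85-fold and 3.90-fold. The transcription factor ATF4 was 1.51-fold and 2.80-fold higher and its target DDIT3 (CHOP) 2.05-fold and 5.08-fold, while the sensor kinase EIF2AK3 (PERK) was 1.88-fold and 1.82-fold higher. An ERSE was found for XBP1 and an ERSE-II for HERPUD1. They were the 2 genes with either element among the 11 of this list that had a window (18.2%), against 7 of 9 folding genes. The window of DNAJB9 held neither.

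The HSP70 genes outside the ER gave the widest contrast with HSPA5. HSPA8, the constitutive HSP70 of the cytosol, had 59764 and 92138 counts in MDA-MB-231 and 71001 and 138526 in the melanoma line, folds of 2.10 and 2.52. The heat-inducible pair HSPA1A and HSPA1B went from 522 to 16564 and from 1181 to 38209 counts in MDA-MB-231 and from 593 to 50494 and from 294 to 26838 in the melanoma line, folds between 43.3 and 118. Their coding sequences are nearly identical, so the split of reads between the pair is uncertain. HSPA9, the HSP70 of mitochondria, was 1.19-fold and 1.57-fold higher, close to the folds of HSPA5, and did not pass the common test (adjusted p = 0.0735, edgeR quasi-likelihood).

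Compared directly, HSPA5 was lower relative to the cytosolic HSP70 after CPYPP, and the change of this ratio was nearly equal in the 2 lines. The ratio of HSPA5 to HSPA8 counts went from 0.360 to 0.220 in MDA-MB-231 and from 0.203 to 0.122 in the melanoma line, changes of 0.611 times (0.598 to 0.624) and 0.603 times (0.589 to 0.617). Against HSPA9 the ratio changed by 1.08 times (1.05 to 1.12) and 0.967 times (0.937 to 0.999). These ratios are taken within each library and do not depend on the scaling.

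**Figure D3:**
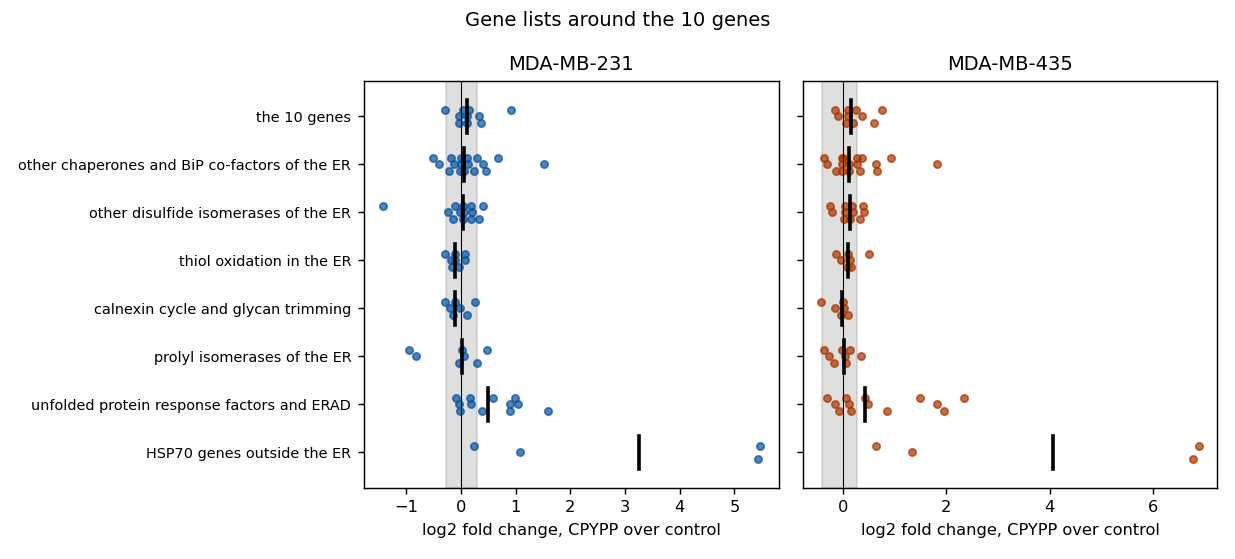
Log2 fold change of CPYPP over control for each tested gene (points) of the 10 genes and 7 lists in MDA-MB-231 (left) and MDA-MB-435 (right), with a black bar at the median of each list and a grey band over the middle 50% of all genes tested. The medians of the 10 genes (0.11 and 0.15) lie inside the band, and those of the unfolded protein response list (0.49 and 0.42) and of the HSP70 genes outside the ER (3.25 and 4.05) lie above it.

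**Figure D4:**
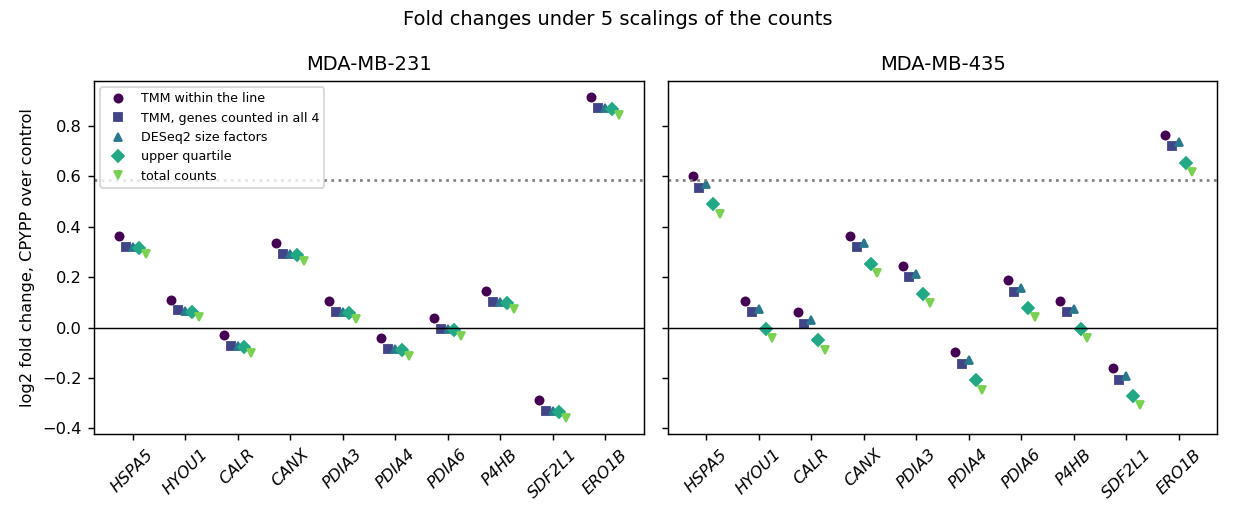
Log2 fold change of the 10 genes in MDA-MB-231 (left) and MDA-MB-435 (right) under 5 scalings of the counts, with a dotted line at a fold change of 1.5. Each scaling moves all 10 genes by the same amount, which takes HSPA5 in MDA-MB-435 from 0.60 to 0.45 and keeps ERO1B above the dotted line in both lines.

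Total counts were 22359735 and 17196385 in the MDA-MB-231 control and CPYPP libraries and 22663954 and 19489282 in those of MDA-MB-435. Of 7 melanocyte markers, SOX10, DCT, TYRP1 and MITF had at least 10 counts in both MDA-MB-435 libraries, led in the control by SOX10 with 3031 counts, against 707 with CPYPP, while TYR stood at 2 and 3, MLANA at 9 and 14 and PMEL at 13 and 4. SOX10 had 0 and 1 counts in MDA-MB-231, where KRT8, a keratin of epithelial cells, had 12813 and 9549 against 522 and 310 in MDA-MB-435. Some markers showed no such contrast, and in the breast and melanoma controls, MITF had 1585 and 1405 counts, PMEL 34 and 13 and the keratin KRT18 8212 and 5740. The summed levels of leukocyte, endothelial and fibroblast markers were at most 9.26 CPM in any library.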

How the data were processed

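RNA captured by its poly(A) tail was sequenced in 4 libraries, 1 for each line and condition. The authors deposited the counts of reads per gene without normalizing them, next to gene positions and exon lengths. The submitters' processing notes name cutadapt 1.9.1, HISAT2 2.2.1, HTSeq 0.6.1, DESeq2 and the build GRCh37.p13, but for 58241 of the 58254 identifiers shared with GENCODE v29 the deposited position overlaps the annotated one, so the coordinates are those of GRCh38. The strand setting is not given in the sources used here. The lines were taken from the sample titles.

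Within each line, counts were scaled by TMM over genes with at least 10 counts in 1 of the 2 libraries (factors 1.02 and 0.976 for the breast line, 1.05 and 0.950 for the melanoma line). A gene was called where edgeR's exact binomial comparison gave a Benjamini-Hochberg p-value under 0.05 and the fold passed 2 or 1.5. Counts of 3 or fewer were set to 3 for folds. Intervals are 95% exact binomial (Clopper-Pearson) and, for ratios of folds or of genes, Wald intervals of the log ratio. The common effect came from edgeR's quasi-likelihood test with the line as a block. It was fitted on the 4 libraries with TMM factors computed over all 4. The common dispersion over all genes tested gave a biological coefficient of variation of 0.121, which is not the spread of any 1 gene. Depths of 17196385 to 22663954 counts make these intervals narrow for 8 of the 10 genes and wide for SDF2L1 and ERO1B. The reads carry no molecular identifiers, so PCR copies of 1 molecule cannot be told from separate molecules. With 1 library per condition, the intervals cover the counting error of reads only. TPM was computed from the counts and the exon length. Promoter windows came from RefSeq.

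The 10 genes and the 7 lists were chosen with earlier results of these data known. Named genes are the 10, every listed gene called past 1.5-fold in the same direction in both lines, HSP90B1, ERO1A, the 4 HSP70 genes outside the ER, and copies or overlapping genes with at least 1% of a member's counts. The procedure was tested on simulated data. Alternatives covered scaling, count filters, an assumed coefficient of variation, DESeq2, the block and the gene length. R 4.3.3, edgeR 4.0.16, DESeq2 1.42.0, limma 3.58.1, Python 3.11.15, pandas 2.3.3 and scipy 1.17.1 were used.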

Additional observations from a re-analysis of the deposited data

Results flagged for a closer look

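CALR lay on opposite sides of its control in the 2 lines, at 0.980 times the control in MDA-MB-231 and 1.04 times in MDA-MB-435, and the ratio of the 2 folds was 1.06. The ratio was 1.01 with total counts and 1.03 by share of the counts of the 10 genes. The difference between the lines was not tested, since each condition had 1 library, and with total counts both folds lay below 1.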

How the results depend on the processing

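HSPA5 and ERO1B were called higher over both lines under every alternative but the fit without the line as a block, where 0 of the 10 genes were called (0 of 16801 genes after adjustment by edgeR, 167 at an unadjusted p under 0.05, and 0 of the 10), with adjusted p for HSPA5 between 8.14e-05 and 1.00 and for ERO1B between 0.000263 and 1.00 over the alternatives. The fit with the block pairs control and CPYPP within each line. DESeq2 called 2131 genes against 1215 and added CANX, whose log2 value there was 0.31. Total counts gave 1965 calls, and TMM within each line, chosen after seeing the data, 1741.

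The number past a 1.5-fold change in MDA-MB-435 was 1 in place of 2 with total counts, DESeq2 size factors, upper-quartile factors or TMM over genes counted in all 4 libraries, where HSPA5 dropped out. With an assumed coefficient of variation of 0.2 it was 0 in each line. The median of the 10 genes was 0.037 in MDA-MB-231 with total counts, and in MDA-MB-435 it was -0.0010 with total counts and 0.037 with upper-quartile factors. Directions of small log2 folds changed with the scaling. PDIA6 in MDA-MB-231 was -0.033 with total counts, -0.0054 with DESeq2 size factors, -0.011 with upper-quartile factors and -0.0050 with the 4-library TMM. In MDA-MB-435 the values with total counts and upper-quartile factors were -0.042 and -0.0045 for HYOU1, -0.089 and -0.051 for CALR and -0.042 and -0.0042 for P4HB. The common value of HYOU1 was -0.0015 with total counts and that of CALR 0.015 with TMM within each line. HSPA5 ranked 3, 2, 4 and 3 among the 10 by CPM without length and 3, 3, 4 and 4 with the principal transcript's length, in place of 2 in each library. Depth limited SDF2L1 and ERO1B, whose counts were lowest, and the lack of replicates limited every fold. The cause of the lost calls without the block was not tested.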
